A study of Mus musculus with 30 samples.

Results

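Elastic fibre genes were followed in whole mouse ovaries before birth through every probe set that the platform annotation assigned to Eln, Fbn1, Fbn2, Mfap2, Mfap4, Mfap5, Fbln1, Fbln2, Fbln5 or Lox. Of these 10 genes 9 had at least 1 probe set, out of 15964 gene symbols on the arrays, and they had 22 of the 36701 probe sets that were not controls. No probe set carried the symbol Fbn1, so Fbn1 was not analysed here. The ovaries were pooled at 11.5, 12.5, 14.5, 16.5 or 18.5 days post coitum (dpc), came from BL/6-129 mice with no other genotype or treatment named in the labels, and were sexed by PCR for Sry at 11.5 and 12.5 dpc. Each age had 2 numbered samples, and each sample number had 1 array of each of 3 types, A, B and C, which carry different probe sets. Nothing in the labels says that the 2 samples of an age were separate pools. The p-values weigh differences between ages against the scatter between samples of an age, and that scatter may be technical only. The genes are called elastic fibre genes here and not stromal genes, because RNA of the whole organ does not show which cells made it. In such bulk samples, more cells of a type and more RNA per cell cannot be told apart.

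An elastic fibre has a core of crosslinked elastin laid down on a scaffold of microfibrils. Fibrillins form the microfibrils, with microfibril-associated glycoproteins bound along them, fibulins link elastin to the scaffold and to cells, and lysyl oxidase crosslinks the elastin. In the ovary the fibrillin microfibrils of the stroma are also known as stores of growth factors of the TGF-beta family.

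The deposited signals had been scaled by the authors to a mean of 125 on each array, and median signals ranged from 47 to 60.2 on A, 74.1 to 81.6 on B and 53.2 to 61.2 on C. Changes were fitted on log2(signal + 16), so a fold is a fold on that scale and understates the change of dim probe sets. Tests were made for probe sets with a signal of 50 or more on 2 or more of the 10 samples. A change was called at an adjusted p under 0.05 in limma, adjusted over all 24825 tested probe sets. The error of a signal is the SD over the 2 samples of an age, and that of a log2 change is its standard error (SE) in the fit. Levels of different probe sets are not compared, since brightness depends on the probes.

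Of the 22 probe sets 16 passed the filter and 6 did not. The 6 were 1 of Mfap4, 1 of Fbln2, 1 of Fbln1, 1 of Lox and 2 of Mfap5, and their values are given with those genes. A probe set of Eln, 92207_at, passed only through its 2 arrays of 18.5 dpc, so it could pass only by being high there, and counts are given with and without it. Over the 5 ages, limma's F test called 11 of the 16 tested probe sets, of 7 genes, where 14.4% of all tested probe sets were called. Without 92207_at it was 10 of 15, of the same number of genes. Those 7 genes were Eln, Fbn2, Mfap2, Mfap4, Fbln2, Fbln5 and Lox. No probe set of Mfap5 or Fbln1 was called, the lowest values being those of Fbln1 94307_at and Mfap5 169062_at (F test, limma adjusted p = 0.052 and 0.060). The highest age mean lay at 16.5 dpc in 13 of the 16, and these covered 8 of the 9 genes, all but Mfap5. Among all tested probe sets the share with its highest age mean at 16.5 dpc was 18.9%. For 11.5, 12.5, 14.5 and 18.5 dpc the shares were 21.7%, 20.3%, 15.3% and 23.8%. The remaining 3 were both tested probe sets of Mfap5, highest at 12.5 dpc, and Eln 92207_at, highest at 18.5 dpc. The 13 share the 2 samples of 16.5 dpc and several share a gene, so they are not 13 independent observations.

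**Figure D1:**
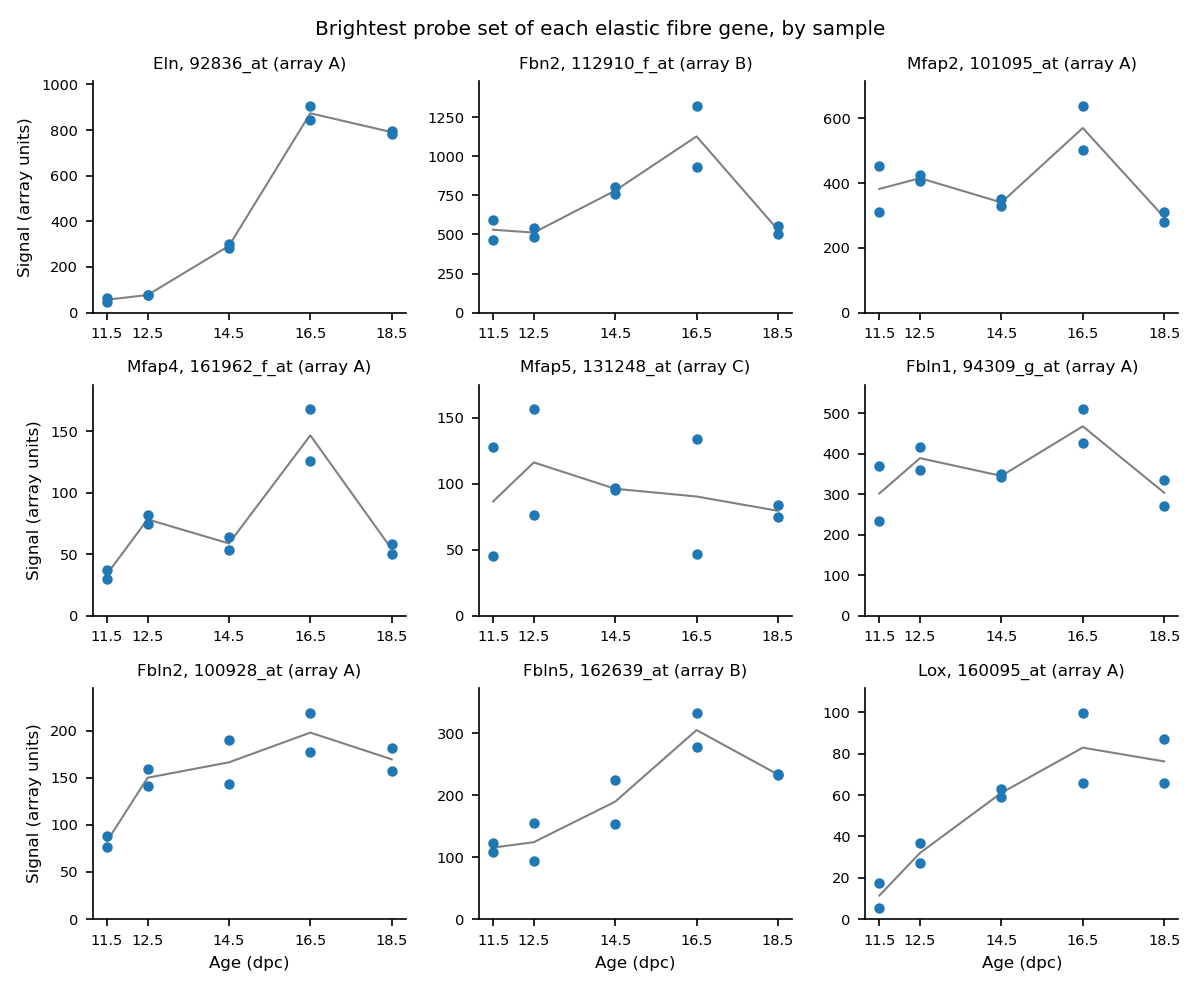
Signal in array units (vertical axis, linear from 0) against age in dpc for the probe set with the highest mean signal of each of the 9 genes; points are the 2 samples of an age and the line joins their means. The line peaks at 16.5 dpc in every panel but that of Mfap5. Eln and Lox have means of 790.8 and 76.2 at 18.5 dpc, close to their means of 873.6 and 82.9 at 16.5 dpc.

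For the fibulins, the 250 bases before the annotated gene start are shown because Fbln2 and Fbln5 were called higher at 18.5 than at 11.5 dpc and Fbln1 was not. Differences between these genes, and any part of the sequences in them, were not tested. The sequences are from RefSeq, build GRCm38.p6, 5′ to 3′ on the strand of the gene, at the most upstream start listed for each gene. Capitals mark the GC box GGGCGG, searched on both strands. Fbln1 lies on the plus strand with this window at chr15:85205699-85205948, Fbln2 on the plus strand at chr6:91212514-91212763 and Fbln5 on the minus strand at chr12:101819120-101819369.
Fbln1: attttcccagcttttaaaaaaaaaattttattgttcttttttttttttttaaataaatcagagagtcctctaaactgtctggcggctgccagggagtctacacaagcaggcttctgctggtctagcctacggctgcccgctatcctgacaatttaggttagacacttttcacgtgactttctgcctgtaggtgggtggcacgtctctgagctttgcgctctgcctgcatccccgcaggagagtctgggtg
Fbln2: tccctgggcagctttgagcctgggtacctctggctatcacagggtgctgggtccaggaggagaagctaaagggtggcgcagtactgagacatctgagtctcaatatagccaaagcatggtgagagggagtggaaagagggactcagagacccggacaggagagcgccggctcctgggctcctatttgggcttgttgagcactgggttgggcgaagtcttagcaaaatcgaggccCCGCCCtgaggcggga
Fbln5: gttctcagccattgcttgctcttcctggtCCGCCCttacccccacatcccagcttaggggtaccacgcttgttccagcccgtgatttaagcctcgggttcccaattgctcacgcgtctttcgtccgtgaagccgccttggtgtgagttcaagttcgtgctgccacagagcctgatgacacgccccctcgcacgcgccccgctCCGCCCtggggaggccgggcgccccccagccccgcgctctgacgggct
The window of Fbln5 held 2 GC boxes, that of Fbln2 held 1 and that of Fbln1 held 0, and 32.7% of the 32851 windows of this length in the table held at least 1. A second listed start of Fbln1 had 1 GC box in its window, and a second listed start of Fbln5 had 0. The counts therefore depend on the start chosen. None of the 3 windows held TATAAA, which 12.4% of all windows held, or a CArG box, the site named for serum response factor, which 1.47% held. The promoter table had no entry for Eln, Mfap4 or Mfap5. A match is a description of these letters and not a bound site.

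Eln encodes tropoelastin, the monomer of the elastic core, and its probe set 92836_at had the largest log2 range among the tested probe sets of these genes. Replicates 1 and 2 had signals of 65.1 and 48.1 at 11.5 dpc, 77.9 and 76.5 at 12.5 dpc, 282.8 and 302.3 at 14.5 dpc, 904.3 and 842.9 at 16.5 dpc, then 797.7 and 784.0 at 18.5 dpc. The first 2 ages were low, 14.5 dpc was intermediate and the last 2 ages were high, with no overlap between 12.5, 14.5 and 16.5 dpc. Eln was 11.2-fold higher at 18.5 than at 11.5 dpc (790.8 ± 9.7 against 56.6 ± 12.0, SD, n = 2 each, log2 change 3.48 ± 0.16 SE, limma adjusted p = 8.7e-08). The rise was spread over 2 intervals, 3.31-fold from 12.5 to 14.5 dpc (log2 change 1.73 ± 0.16 SE, limma adjusted p = 0.00018) and 2.88-fold from 14.5 to 16.5 dpc (1.53 ± 0.16 SE, limma adjusted p = 0.00075). From 11.5 to 12.5 dpc the log2 change was 0.37 ± 0.16 SE and from 16.5 to 18.5 dpc it was -0.14 ± 0.16 SE, neither called (limma adjusted p = 0.38 and 0.77). The calls of 92836_at in these 3 comparisons held in all 17 alternative settings, with adjusted p-values of at most 0.017. With a pseudocount of 64 its log2 change at 18.5 against 11.5 dpc was 2.83.

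The other probe set of Eln was dim. Probe set 92207_at had 0.8 and 15.0 at 11.5 dpc, 9.9 and 21.3 at 12.5 dpc, 7.9 and 8.6 at 14.5 dpc, 36.9 and 39.6 at 16.5 dpc, then 73.2 and 78.6 at 18.5 dpc. Both probe sets were highest at the last 2 ages. They did not share the step from 12.5 to 14.5 dpc, where 92207_at had a log2 change of -0.36 ± 0.37 SE, nor the level stretch after 16.5 dpc, where it had 0.76 ± 0.37 SE. At 18.5 against 11.5 dpc the log2 change of 92207_at was 2.01 ± 0.37 SE, 3.06 with a pseudocount of 4 and 0.97 with 64. The difference between the probe sets was not tested.

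Among the microfibril genes Fbn2, which encodes fibrillin 2, the fibrillin made mainly before birth, had 4 tested probe sets and all 4 were called by the F test (limma adjusted p = 0.045, 0.0076, 0.017 and 0.0042 for 103623_at, 112910_f_at, 112911_r_at and 130307_f_at). The call of 103623_at was lost in 13 of the 16 settings in which it was tested (adjusted p up to 0.12), those of 112910_f_at and 112911_r_at without 16.5 dpc replicate 2 and without the intensity trend, and that of 130307_f_at in none of 17. All 4 had their highest mean at 16.5 dpc. Probe set 112910_f_at on array B, had 466.9 and 593.8 at 11.5 dpc, 483.0 and 540.2 at 12.5 dpc, 760.0 and 801.0 at 14.5 dpc, 934.1 and 1319.6 at 16.5 dpc, then 557.0 and 502.2 at 18.5 dpc. Its samples of 14.5 and 16.5 dpc lay above every sample of the other 3 ages. It fell 2.07-fold from 16.5 to 18.5 dpc, to 529.6 ± 38.8 at 18.5 dpc against 1127 ± 273 at 16.5 dpc (SD, n = 2 each, log2 change -1.05 ± 0.20 SE, limma adjusted p = 0.040). That fall was not called in 8 of the 10 fits without 1 sample, the exceptions being those without a sample of 11.5 dpc, or in 2 of the 7 other settings, and its adjusted p ranged from 0.026 to 0.25.

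The probe sets of Fbn2 differed over the whole course. At 18.5 against 11.5 dpc, 112910_f_at had a log2 change of 0.01 ± 0.20 SE and was not called. In the same comparison 130307_f_at on array C rose 4.93-fold, with 235.5 and 292.0 at 18.5 dpc against 25.4 and 61.0 at 11.5 dpc (log2 change 2.30 ± 0.41 SE, limma adjusted p = 0.0030). Its highest sample was 16.5 dpc replicate 2 with 549.1, beside 280.3 in replicate 1. Probe set 112911_r_at rose 1.82-fold, with 567.9 and 561.6 at 18.5 dpc against 236.8 and 387.9 at 11.5 dpc (limma adjusted p = 0.032), and 103623_at, which passed the filter through the 4 later ages only, rose 2.55-fold, with 81.7 and 79.0 at 18.5 dpc against 6.3 and 47.9 at 11.5 dpc (limma adjusted p = 0.034). In 112910_f_at the samples of 18.5 and 11.5 dpc overlapped. Without 11.5 dpc replicate 1 the change of 103623_at was 0.59 on the log2 scale in place of 1.35 and that of 112911_r_at was 0.52 in place of 0.86, with adjusted p-values of 0.20 and 0.21. Both calls were also lost without either sample of 18.5 dpc (limma adjusted p = 0.12 to 0.15) and without the intensity trend (0.051 and 0.089), and that of 103623_at with no filter (0.064). With a pseudocount of 64 the log2 change was 1.63 for 130307_f_at and 0.70 for 103623_at. The suffixes f, r, i and g before _at mark probe sets that may share probes with related transcripts or were picked under relaxed rules, and cross-hybridisation was not tested.

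Mfap2 encodes the small glycoprotein MAGP-1, which binds fibrillin. Its 1 probe set, 101095_at, had 311.7 and 452.5 at 11.5 dpc, 406.1 and 424.7 at 12.5 dpc, 351.5 and 329.1 at 14.5 dpc, 637.4 and 503.2 at 16.5 dpc, then 279.6 and 309.4 at 18.5 dpc. Both samples of 16.5 dpc lay above all 8 others, and both of 18.5 dpc below all 8 others. The F test called it (limma adjusted p = 0.037), but no single interval was called. From 16.5 to 18.5 dpc the log2 change was -0.91 ± 0.19 SE (limma adjusted p = 0.057) and from 14.5 to 16.5 dpc it was 0.71 ± 0.19 SE (limma adjusted p = 0.10). The F call was lost in 8 of the 10 fits without 1 sample, all but those without a sample of 11.5 dpc, and its adjusted p ranged from 0.0083 to 0.18 over all 17 settings.

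Mfap4, a fibrinogen-domain protein that binds elastin and microfibrils, showed a peak at 16.5 dpc in probe set 161962_f_at. Its signals were 37.6 and 30.0 at 11.5 dpc, 74.4 and 82.3 at 12.5 dpc, 64.2 and 53.4 at 14.5 dpc, 167.6 and 125.6 at 16.5 dpc, then 58.3 and 50.1 at 18.5 dpc. The 2 samples of 16.5 dpc were above all others and the 2 of 11.5 dpc below all others. It rose 2.16-fold from 14.5 to 16.5 dpc (146.6 ± 29.7 at 16.5 dpc against 58.8 ± 7.6 at 14.5 dpc, SD, n = 2 each, log2 change 1.11 ± 0.22 SE, limma adjusted p = 0.042). It then fell 2.30-fold to 54.2 ± 5.8 at 18.5 dpc, against 146.6 ± 29.7 at 16.5 dpc (log2 change -1.20 ± 0.22 SE, limma adjusted p = 0.030). The F test called it in all 17 settings (limma adjusted p = 0.0024, range 0.0018 to 0.023). The rise was lost in 8 and the fall in 6 of the 10 fits without 1 sample, and both with no filter (adjusted p up to 0.19 and 0.25). The probe set passed the filter through the 4 later ages only. The second probe set of Mfap4, 96826_at, was dim, between 6.5 and 38.4, and was not tested.

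Mfap5 encodes MAGP-2, the second small fibrillin-binding glycoprotein, and its 4 probe sets gave no common course. Probe set 169062_at on array C had 99.8 and 88.8 at 11.5 dpc, 112.0 and 168.8 at 12.5 dpc, 44.2 and 40.4 at 14.5 dpc, 26.8 and 29.5 at 16.5 dpc, then 65.0 and 32.7 at 18.5 dpc. The 4 samples of 11.5 and 12.5 dpc lay above the 6 later ones, and no sample of 14.5 or 16.5 dpc reached 50. It was not called by the F test (limma adjusted p = 0.060), and its step from 12.5 to 14.5 dpc was -1.40 ± 0.45 SE on the log2 scale (limma adjusted p = 0.15). In 131248_at, also on array C, the 2 samples differed widely at several ages, with 128.2 and 45.1 at 11.5 dpc and 134.0 and 46.8 at 16.5 dpc, and no change was called (F test, limma adjusted p = 0.94). The other 2, 99517_at and 99518_at, ranged from 14.9 to 52.9 and from 5.1 to 27.8 and were not tested.

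**Figure D2:**
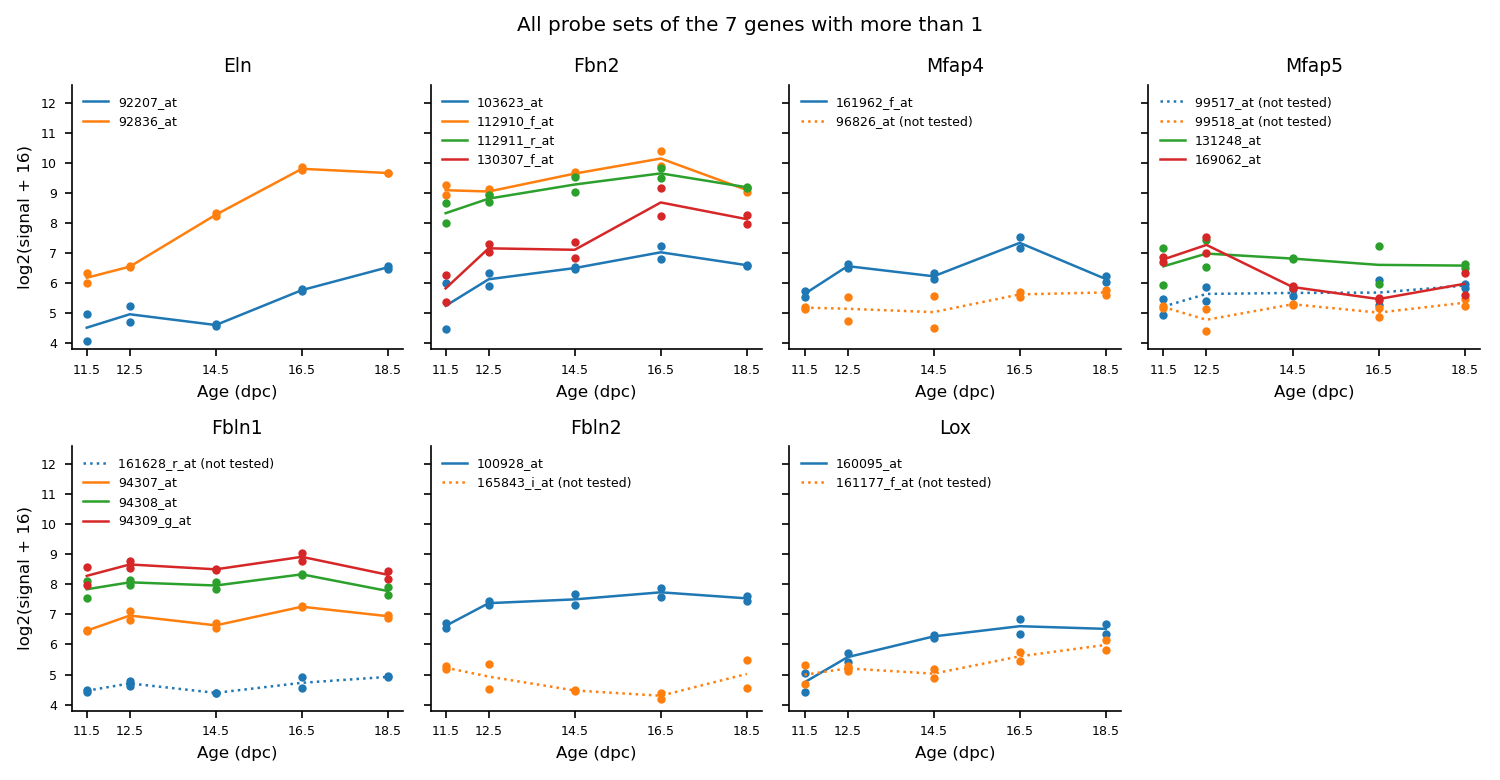
log2(signal + 16) against age in dpc for all probe sets of the 7 genes with more than 1; points are samples, lines join age means, and dotted lines are probe sets that did not pass the filter. The probe sets of Fbn2 share a highest mean at 16.5 dpc, as do the 3 tested ones of Fbln1, and those of Mfap5 do not share a course.

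The fibulin genes had 5 tested probe sets, all with their highest mean at 16.5 dpc, and differences between the genes were not tested. Fbln5, which tethers elastin to microfibrils and to integrins, had 1 probe set, 162639_at on array B, with 107.6 and 123.0 at 11.5 dpc, 93.3 and 154.7 at 12.5 dpc, 225.0 and 153.8 at 14.5 dpc, 332.8 and 276.8 at 16.5 dpc, then 232.3 and 234.0 at 18.5 dpc. The samples of 16.5 dpc were the highest and those of 18.5 dpc came next, all 4 above every sample of 11.5 and 12.5 dpc. It was 1.90-fold higher at 18.5 than at 11.5 dpc (233.2 ± 1.2 against 115.3 ± 10.9, SD, n = 2 each, log2 change 0.93 ± 0.26 SE, limma adjusted p = 0.031). That call was lost without any 1 sample of 18.5 or 11.5 dpc (limma adjusted p = 0.057 to 0.13), with the log2 change between 0.84 and 1.01, and without the intensity trend (0.063).

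Fbln2, a fibulin of basement membranes and developing vessels, was lowest at 11.5 dpc. Probe set 100928_at had 76.7 and 88.0 at 11.5 dpc, 141.1 and 158.9 at 12.5 dpc, 189.6 and 143.1 at 14.5 dpc, 219.0 and 176.8 at 16.5 dpc, then 181.7 and 157.4 at 18.5 dpc. Both samples of 11.5 dpc lay below all later samples, which overlapped from age to age. It was 1.89-fold higher at 18.5 than at 11.5 dpc (log2 change 0.92 ± 0.19 SE, limma adjusted p = 0.0070), and this call was lost without 18.5 dpc replicate 1 (limma adjusted p = 0.073). The F test called it too (limma adjusted p = 0.011), except without 11.5 dpc replicate 1 (0.054). The interval from 11.5 to 12.5 dpc had a log2 change of 0.76 ± 0.19 SE and was not called (limma adjusted p = 0.15). The second probe set of Fbln2, 165843_i_at, stayed between 2.4 and 29.1 and was not tested.

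Fbln1, which binds elastin, fibronectin and basement membrane proteins, had 3 tested probe sets, none called by the F test or in any interval. The F test gave limma adjusted p = 0.052, 0.25 and 0.16 for 94307_at, 94308_at and 94309_g_at. Probe set 94309_g_at had 234.7 and 369.8 at 11.5 dpc, 417.9 and 361.1 at 12.5 dpc, 341.8 and 349.4 at 14.5 dpc, 509.7 and 426.5 at 16.5 dpc, then 335.9 and 272.5 at 18.5 dpc. All 3 had their highest mean at 16.5 dpc. Their log2 changes from 16.5 to 18.5 dpc were -0.32 ± 0.18, -0.56 ± 0.20 and -0.60 ± 0.21 SE for 94307_at, 94308_at and 94309_g_at (limma adjusted p = 0.50, 0.26 and 0.24). At 18.5 against 11.5 dpc they were 0.48 ± 0.18, -0.06 ± 0.20 and 0.03 ± 0.21 SE. The fourth, 161628_r_at, never exceeded 14.6.

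Lox encodes lysyl oxidase, the enzyme that crosslinks elastin and collagen. Probe set 160095_at had 17.4 and 5.4 at 11.5 dpc, 27.1 and 36.9 at 12.5 dpc, 59.0 and 63.1 at 14.5 dpc, 99.8 and 66.0 at 16.5 dpc, then 86.9 and 65.6 at 18.5 dpc. The samples of 11.5, 12.5 and 14.5 dpc did not overlap each other, and those of 16.5 and 18.5 dpc did. It was 3.43-fold higher at 18.5 than at 11.5 dpc (76.2 ± 15.1 against 11.4 ± 8.5, SD, n = 2 each, log2 change 1.78 ± 0.29 SE, limma adjusted p = 0.0017), and no interval was called on its own. It passed the filter through the 3 later ages only. The size of this change depends on the pseudocount, since the signals of 11.5 dpc are low: the log2 change of Lox was 2.49 with a pseudocount of 4 and 0.90 with 64. The call held in all 16 settings in which the probe set was tested. It never reached 100 on any array and so was not tested with the filter at 100. Probe set 161177_f_at of Lox passed 50 on 1 array only, with 40.6 and 54.8 at 18.5 dpc against 9.5 and 23.7 at 11.5 dpc, and was not tested.

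Over the whole course, 8 of the 16 tested probe sets of these genes were called at 18.5 against 11.5 dpc, all 8 higher and of 5 genes (Eln, Fbn2, Fbln2, Fbln5 and Lox). Without Eln 92207_at, which passed the filter through 18.5 dpc alone, it was 7 of 15, also of 5 genes. Lox 160095_at and Fbn2 103623_at, both among those called, did not reach 50 at 11.5 dpc either. They passed the filter through later ages only and stay in both counts. Of all tested probe sets 14.5% were called, 7.59% higher and 6.87% lower. The median log2 change was 0.68 over the 16 and 0.02 over all tested probe sets. Leaving out 18.5 dpc replicate 1 gave a count of 3, leaving out 18.5 dpc replicate 2 gave 4 and leaving out 11.5 dpc replicate 1 gave 5. The count was also 5 without the intensity trend and with the filter at 100, under which 13 of the 16 were tested. Without either sample of 18.5 dpc Eln 92207_at did not pass the filter, so its missing call there is not a failed test.

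By interval the calls were few. From 11.5 to 12.5 dpc none of the 16 was called by limma, 15 were above 0, and 0.226% of all tested probe sets were called, 0.197% higher and 0.0282% lower. The median log2 change of the 16 was 0.46 in that interval. An unadjusted p under 0.05 was found for 7 of the 16 and for 12.4% of all tested probe sets. In the next 3 intervals it was 5, 8 and 5 of the 16, beside 14.9%, 15.6% and 13.1% of all. From 12.5 to 14.5 dpc Eln 92836_at was called, against a background of 1.66% (1.08% higher and 0.576% lower), with 7 of the 16 above 0 and a median of -0.08. From 14.5 to 16.5 dpc Eln 92836_at and Mfap4 161962_f_at rose and none fell, with 14 of the 16 above 0, a median of 0.51 and a background of 0.689% (0.294% higher and 0.395% lower). From 16.5 to 18.5 dpc Mfap4 161962_f_at and Fbn2 112910_f_at fell and none rose, with 2 of the 16 above 0, a median of -0.39 and a background of 0.624% (0.431% higher and 0.193% lower). The medians over all tested probe sets lay between -0.01 and 0.02 in the 4 intervals and over the whole course. Neighbouring intervals share the samples of the age between them, so a high 16.5 dpc enters the rise before it and the fall after it.

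**Figure D3:**
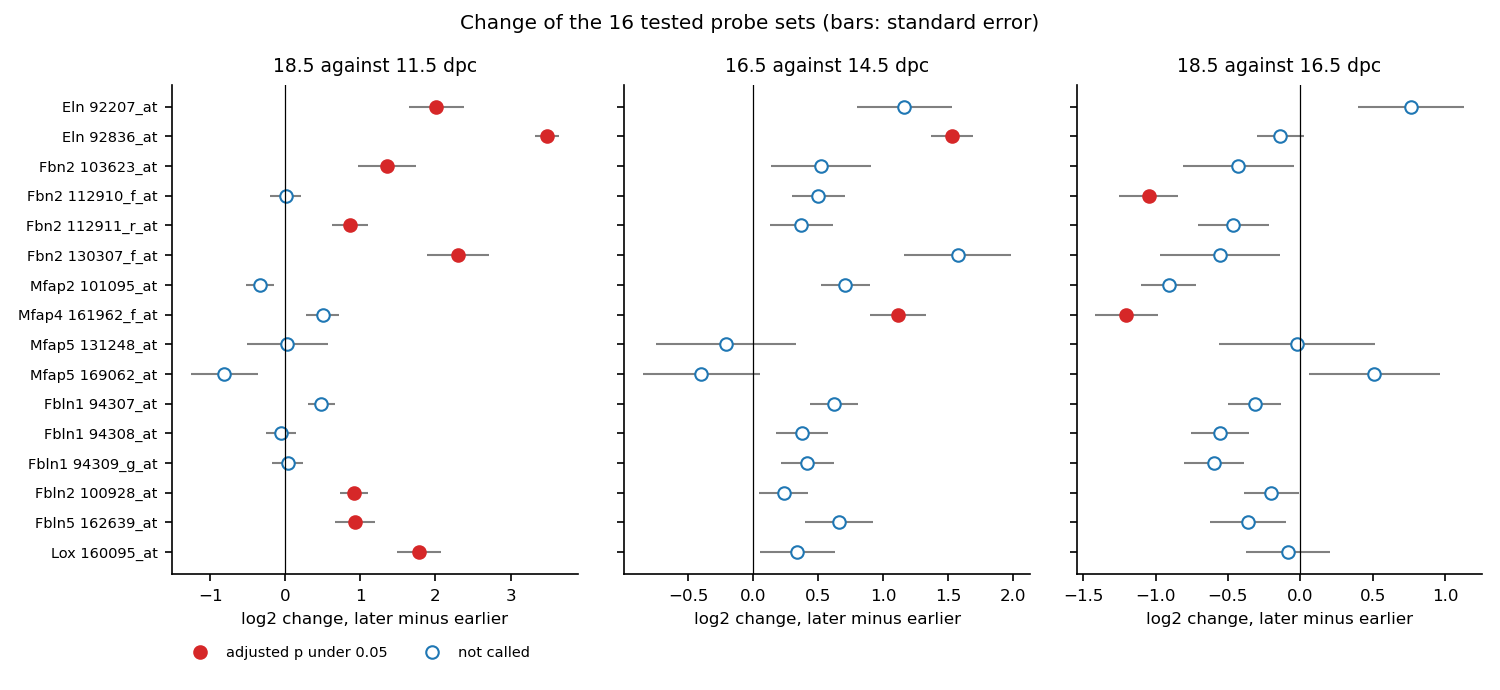
Log2 change of the 16 tested probe sets (horizontal axis, later age minus earlier age, bars are standard errors of the limma fit) at 18.5 against 11.5, 16.5 against 14.5 and 18.5 against 16.5 dpc; filled red points have an adjusted p under 0.05. Called points number 8, 2 and 2 from left to right, and most points lie right of 0 in the middle panel and left of 0 in the right panel.

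A list of other elastic fibre and associated matrix genes, with growth factors and integrins among them, had calls in both directions. Of 39 listed genes 27 were tested, and at 18.5 against 11.5 dpc 4 rose, 3 fell and 20 were not called, with a median log2 change of -0.11, against 0.02 over all genes. In this comparison 7.59% of all tested probe sets were called higher and 6.87% lower. Ltbp4, a latent TGF-beta binding protein that also takes part in elastic fibre assembly, rose 4.98-fold, with 398.7 and 407.9 at 18.5 dpc against 50.1 and 91.2 at 11.5 dpc (log2 change 2.32 ± 0.24 SE, limma adjusted p = 8e-05). Decorin, Dcn, a small proteoglycan that binds collagen, rose 2.55-fold, with 903.9 and 870.4 at 18.5 dpc against 369.0 and 309.4 at 11.5 dpc (limma adjusted p = 0.00077). Hemicentin 1, Hmcn1, and the growth factor Tgfb3 rose 2.29-fold and 1.75-fold (limma adjusted p = 0.023 and 0.016). Versican, Vcan, a proteoglycan of embryonic matrix, fell 4.47-fold, with 17.2 and 51.7 at 18.5 dpc against 158.4 and 242.0 at 11.5 dpc (limma adjusted p = 0.0046). Emilin1, a glycoprotein at the border of elastin and microfibrils, fell 1.99-fold, and the integrin subunit Itgav, named after its value was seen, fell 1.5-fold (limma adjusted p = 0.018 and 0.040).

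The calls of Ltbp4, Dcn and Vcan held in all 17 settings, with a log2 change of -1.43 for Vcan with a pseudocount of 64 in place of -2.16. Those of the other 4 were each lost in at least 2 fits without 1 sample: without 18.5 dpc replicate 1 the adjusted p was 0.22 for Hmcn1, 0.14 for Emilin1, 0.062 for Tgfb3 and 0.23 for Itgav, and only 3 genes of the list were called. Without 11.5 dpc replicate 2 it was 4 genes. In single intervals Ltbp4 rose 2.76-fold from 11.5 to 12.5 dpc (limma adjusted p = 0.044) and Dcn rose 2.14-fold from 12.5 to 14.5 dpc (limma adjusted p = 0.013). No other listed gene was called in any interval. Loxl1, a lysyl oxidase relative also needed for elastic fibres and named after its values were seen, had 112.5 ± 12.2 at 18.5 dpc and 139.8 ± 0.07 at 11.5 dpc (SD, n = 2 each) and was not called (limma adjusted p = 0.64).

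Of 13 genes of elastin-degrading enzymes and their inhibitors 8 were tested, and the cathepsin Ctsl alone was called at 18.5 against 11.5 dpc, where 14.5% of all tested probe sets were called. Ctsl, a lysosomal protease, rose 1.66-fold, with 682.0 and 636.6 at 18.5 dpc against 379.0 and 404.1 at 11.5 dpc (limma adjusted p = 0.029). This call was lost without any 1 sample of 18.5 or 11.5 dpc (limma adjusted p = 0.052 to 0.16). The tissue inhibitor Timp3, also named after its values were seen, had 342.5 ± 9.4 at 18.5 dpc and 237.4 ± 33.9 at 11.5 dpc and was not called (limma adjusted p = 0.067).

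Markers of other tissue compartments were called in both directions at 18.5 against 11.5 dpc, and some lists had no call. Of 12 listed stromal and mesenchymal markers 9 were tested, 4 rose (Col1a1, Lum, Dcn and Col3a1), 3 fell (Tcf21, Nr2f2 and Postn) and 2 were not called at 18.5 against 11.5 dpc. Of all tested probe sets 7.59% were called higher and 6.87% lower. From 14.5 to 16.5 dpc Col1a1 alone of the 9 was called, 2.95-fold higher (limma adjusted p = 0.042). From 12.5 to 14.5 dpc Dcn alone was called, also higher. Dcn is also on the list of associated matrix genes above, so these lists are not separate. Of the 12, 10 reached 50 on some array. Their summed signal lay between 3295.7 and 4177.9 in the 6 samples of the first 3 ages, against 7564.8 and 4757.6 at 16.5 dpc, then 4252.5 and 4485.3 at 18.5 dpc. The sum of the 9 elastic fibre genes lay between 1445.9 and 2369.4 in the first 3 ages, against 3938.7 and 3784.2 at 16.5 dpc, then 2604.6 and 2459.1 at 18.5 dpc. Both sums had their highest mean at 16.5 dpc. At that age replicate 1 was the higher in both, by far more in the stromal sum. Of the probe sets in the elastic fibre sum only that of Fbn2, 112910_f_at, was higher in replicate 2, with 1319.6 against 934.1. Bright probe sets weigh most in such sums. At 16.5 dpc the mean was 1127 for Fbn2 112910_f_at and 873.6 for Eln 92836_at, against 82.9 for Lox 160095_at.

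Of 8 smooth muscle markers 5 were tested and Tagln alone rose at 18.5 against 11.5 dpc (2.11-fold, limma adjusted p = 0.0070). Their summed signal was 752.3 and 796.5 at 18.5 dpc against 653.2 and 568.2 at 11.5 dpc. Its samples of 16.5 dpc had 908.1 and 718.3. Of 7 endothelial markers tested 3 fell and none rose, and the sum of all 8 listed was 586.4 and 588.7 at 18.5 dpc against 995.4 and 843.0 at 11.5 dpc. The sum of 5 pregranulosa markers was also highest at 16.5 dpc, with 4146.1 and 4358.5 against at most 3349.8 in any other sample. At 18.5 against 11.5 dpc 3 of the 5 rose (Irx3, Foxl2 and Fst) and 2 were not called. The summed signal of the 7 surface epithelium markers was 3039.8 and 2909.1 at 18.5 dpc against 974.6 and 757.8 at 11.5 dpc. Of the 6 tested 5 rose in this comparison and 1 was not called. From 12.5 to 14.5 dpc all 6 were called higher, beside 1.08% of all tested probe sets. From 14.5 to 16.5 dpc Krt19 rose 1.99-fold (limma adjusted p = 0.042) and 5 were not called. For that interval 0.294% of all tested probe sets were called higher. No marker of these lists had a signal of 0, and signals from arrays A, B and C enter a sum on their own scales. Of the mesonephric and macrophage markers, 2 and 5 tested, none was called. Of 5 germ cell markers 3 rose and 1 fell, and of 5 erythroid markers 1 rose and 3 fell. Where no other interval is named, the marker counts are for 18.5 against 11.5 dpc, where 7.59% of all tested probe sets were called higher and 6.87% lower. The Gapdh control signals give a 3′ over 5′ ratio, which was 1.08 and 1.05 at 18.5 dpc against 0.845 and 0.829 at 11.5 dpc, with 0.917 and 1.09 for the samples of 16.5 dpc. The part of these markers and of this ratio in the changes of the elastic fibre genes was not tested.

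**Figure D4:**
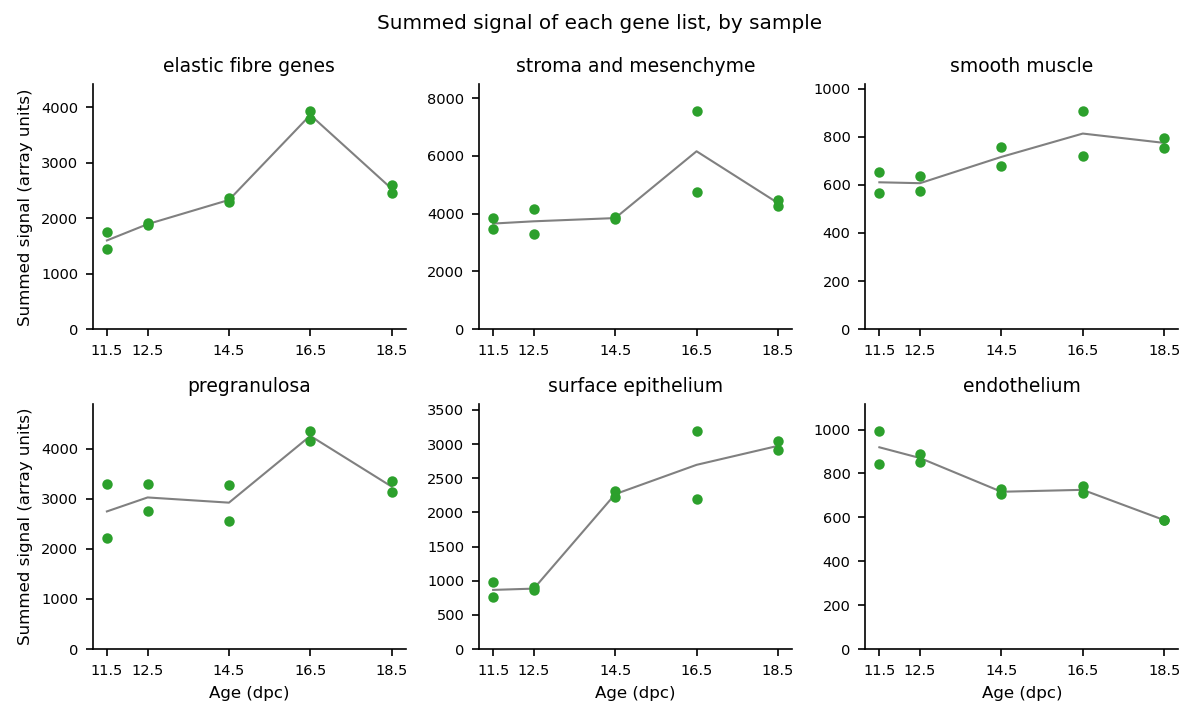
Summed signal in array units (vertical axis, linear from 0) against age in dpc for the 9 elastic fibre genes and 5 marker lists, with 1 probe set per gene; points are the 2 samples of an age and lines join their means. The elastic fibre, stromal, smooth muscle and pregranulosa sums have their highest mean at 16.5 dpc, the surface epithelium sum at 18.5 dpc and the endothelial sum at 11.5 dpc.

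Genes with the most similar course were sought for the 3 genes with the largest log2 range among called probe sets, Eln, Fbn2 and Lox. The measure was the distance between profiles of log2(signal + 16) over the 10 samples, each centred on its own mean, among probe sets of the same array type called by the F test (1481 on A and 553 on C). A distance of 0 would be an identical course, and these genes were picked for their likeness, so no test was made. Nearest to Eln 92836_at, whose distance from a flat profile was 4.8, were the keratin Krt19 (0.882), the transketolase-like gene Tktl1 (0.896), the R-spondin receptor Lgr5 (1.24) and the matrix Gla protein Mgp (1.27). Krt19 and Lgr5 are among the surface epithelium markers listed here. Krt19 had means of 51.0, 58.3, 256.6, 534.7 and 702.0 in order of age. Its mean was thus higher at 18.5 than at 16.5 dpc, where that of Eln 92836_at was not. The dim Eln 92207_at was higher at 18.5 dpc, with a mean of 75.9 against 38.25 at 16.5 dpc. Nearest to Lox 160095_at (2.31 from flat) were Dcn (0.717), Ces2g (0.738), Lrrn1 (0.799) and Pnck (0.872), and nearest to Fbn2 130307_f_at (3.26 from flat) were Stum (1.24), E130311K13Rik (1.29), Borcs7 (1.38) and Golga3 (1.39). Dcn, which is on the stromal marker list, had means of 339.2, 440.2, 954.5, 1083 and 887.2 in order of age. Like Lox it was lowest at 11.5 dpc and highest at 16.5 dpc.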

How the data were processed

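Total RNA of pooled embryonic ovaries was measured on 30 arrays (10 samples, 3 array types). The deposited intensity values, 1 signal per probe set, had been scaled by the authors to a mean signal of 125 on each array, per the labels. Their software is not stated in the labels, and detection calls played no part. Gene names came from the platform annotation, in which 29131 probe sets had 1 symbol, 724 several and 6846 none; 198 control probe sets were left out.

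Signals were analysed as log2(signal + 16) in limma (version 3.58.1, R 4.3.3) by lmFit and an eBayes step that models an intensity trend, 1 fit per array type with the 5 ages as groups and 5 residual degrees of freedom. P-values were adjusted by Benjamini-Hochberg over the tested probe sets of the 3 types together. The tests were an F test over the ages, each interval, and 18.5 against 11.5 dpc. The procedure was tested on simulated data. The number of arrays limits the precision.

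The genes, lists and named genes were chosen with earlier results of these data known. Every probe set of the 10 genes is given. The rule for the lists of associated matrix and degradation genes named up to 6 called genes of each, those with the largest absolute log2 change. Itgav, Loxl1, Timp3 and the marker genes are named beyond it. A listed gene is read from whichever of its tested probe sets is brightest on average. List counts are therefore of genes, while the shares given beside them are of all tested probe sets. The arrays A, B and C of a number were taken as 1 sample when a sample was left out. Alternatives were a pseudocount of 4 or 64, no filter or a filter at 100, quantile normalization, no intensity trend, the replicate number as a block, and leaving out each sample.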

Additional observations from a re-analysis of the deposited data

How the results depend on the processing

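Counts are of probe sets of the elastic fibre genes called by limma. Without 1 sample they ranged from 7 to 12 in the F test, 3 to 8 at 18.5 against 11.5 dpc, 0 to 1 at 12.5 against 11.5 dpc, 1 to 1 at 14.5 against 12.5 dpc, 1 to 3 at 16.5 against 14.5 dpc and 0 to 3 at 18.5 against 16.5 dpc. In those fits the lone sample of an age is assumed to vary like the others. Eln 92207_at was not tested in the fits without a sample of 18.5 dpc, since it did not pass the filter there. Without the intensity trend the counts were 7 in the F test, 5 at 18.5 against 11.5 dpc and 1 at 18.5 against 16.5 dpc. With no filter they were 1 at 16.5 against 14.5 dpc and 0 at 18.5 against 16.5 dpc, where more probe sets shared the adjustment, and with the filter at 100 the count at 18.5 against 11.5 dpc was 5, with 13 probe sets tested. Otherwise the cause of these shifts was not tested. With the pseudocount at 4 or 64, quantile normalization or the replicate block, the 6 counts stayed within 1.5 times the main ones, and no called change of these genes turned its direction in any setting. With the replicate number as a block the F test called 10 in place of 11, losing Mfap2. With a pseudocount of 64 it called 13. The labels do not say that a number marks a shared litter or day, and samples of the same number did not deviate together: the correlation of replicate differences between ages was -0.161 to 0.219 over 10 pairs of ages on array A and at most 0.0984 on B and C. Over all tested probe sets, 56 were called at 12.5 against 11.5 dpc, against 6 with no filter, 32 with quantile normalization, 4 without the intensity trend, 32 with the replicate block and 2 to 558 without 1 sample. At 14.5 against 12.5 dpc 412 were called, against 271 without the trend and 111 to 836 without 1 sample; at 16.5 against 14.5 dpc 171, against 101 with no filter, 76 without the trend and 31 to 566 without 1 sample. At 18.5 against 16.5 dpc it was 155, against 101 with the pseudocount at 4 and 21 to 240 without 1 sample. At 18.5 against 11.5 dpc it was 3589, against 1511 to 3483 without 1 sample. By F test over the 5 ages it was 3565, against 1817 to 4367 without 1 sample. For the lists of associated matrix and degradation genes the same settings were applied after seeing the data. Signals near or under 50, as in Lox and Eln 92207_at, limit what can be said of the low ages.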
